A study of Mus musculus with 19 samples.

Results

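The 36 genes described here are G2 and mitosis genes, whose products carry a cell from the end of DNA replication through chromosome segregation and cell separation. They were chosen as a list of gene symbols and matched to Ensembl identifiers, and all 36 were found among the 39179 gene identifiers of the count table. Their levels were described across 10 mouse liver tumours, numbered 4 to 13. Every member had reads in every tumour, with a smallest count of 19 (Ndc80), and all 36 passed the filter on low counts that left 12462 genes for comparison.

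The tumours arose in male mice heterozygous for Ctnnb1tm1Mmt and homozygous for Gt(ROSA)26Sortm1(MYC)Djmy, given AAV8.TBG.PI.Cre.rBG at 640000000 genome copies (GC) per mouse. The virus carries Cre recombinase under the thyroxine-binding globulin promoter, so the recombination that activates β-catenin and MYC is directed to hepatocytes, whereas vessels, stroma and immune cells in the tumour are not targeted. The labels list 13 tumours, 3 control livers with the same genotype and dose, and 3 high AAV control livers given 200000000000 GC per mouse. Only tumours 4 to 13 could be tied to a column of the count table, so no comparison with control liver was made here. Each column name also carries a tag, which is shared by some tumours and whose meaning the labels do not give. If a tag stands for a mouse, tumours that share it are not independent, and p-values then measure a spread that is partly within animals.

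Cells enter mitosis when cyclin B-bound CDK1 becomes active, and they leave it when the anaphase-promoting complex marks cyclin B and securin for destruction. The genes for this machinery are transcribed late in the cycle, mainly through the factors B-MYB, FOXM1 and NF-Y and the MuvB complex, and are kept low in resting cells. Most hepatocytes of an adult liver are resting, so transcripts of this kind in bulk liver tissue are commonly read as a measure of dividing cells. In bulk tumours, fewer cells of a type and less RNA per cell cannot be told apart.

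Promoters of these genes often hold a cell cycle genes homology region (CHR), the letters TTTGAA, which the MuvB complex binds, and CCAAT boxes, which NF-Y binds. RefSeq promoter windows on GRCm38.p6, from 250 bases before to 50 bases after the start, were present for 31 of the 36 members. Foxm1, Ccna2, Aurkb, Tpx2 and Kif20a had none. The following stretches are the 100 bases before the start of 6 members. Cdk1, Cdc20, Kif11 and Top2a hold the CHR letters in the last 40 of these bases. Espl1, Prc1 and Ube2c do so too and are not shown. Ccnb1 and Ccnb2 were added as the B-type cyclins, and neither has TTTGAA in these 100 bases. The stretches are written 5′ to 3′ on the strand of the gene, with CCAAT (or ATTGG on the other strand), TTTGAA (or TTCAAA) and the related TTTAAA in capitals.
Ccnb1, chr13:100786487-100786586, minus strand: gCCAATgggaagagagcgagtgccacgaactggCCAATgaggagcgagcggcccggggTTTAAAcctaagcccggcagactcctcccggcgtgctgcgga
Ccnb2, chr9:70421555-70421654, minus strand: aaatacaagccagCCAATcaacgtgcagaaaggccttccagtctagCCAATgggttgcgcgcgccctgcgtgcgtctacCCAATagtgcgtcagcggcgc
Cdk1, chr10:69352913-69353012, minus strand: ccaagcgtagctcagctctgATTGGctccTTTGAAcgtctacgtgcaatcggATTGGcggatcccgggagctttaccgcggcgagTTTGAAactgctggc
Cdc20, chr4:118437344-118437443, minus strand: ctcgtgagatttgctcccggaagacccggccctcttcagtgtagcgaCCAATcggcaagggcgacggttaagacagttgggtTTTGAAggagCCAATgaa
Kif11, chr19:37376282-37376381, plus strand: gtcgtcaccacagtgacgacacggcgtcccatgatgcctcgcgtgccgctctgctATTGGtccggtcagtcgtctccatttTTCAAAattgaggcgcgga
Top2a, chr11:99024190-99024289, minus strand: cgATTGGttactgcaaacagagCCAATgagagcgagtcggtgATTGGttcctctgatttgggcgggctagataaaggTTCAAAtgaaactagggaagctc

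The CHR letters TTTGAA, on either strand, were present in the windows of 23 of 31 members (74.2%) and of 20.2% of 27025 RefSeq genes. CCAAT, on either strand, was present in 74.2% of the members and 41.1% of all genes, and both occurred in 1 window for 64.5% of the members and 7.97% of all genes. Of 50 other G2 and mitosis genes with a window, 62% held the CHR letters, against 14.3% of 42 G1/S and replication genes and 12% of 25 ribosome biogenesis genes. Within 40 bases of the start, a distance chosen after the matches were seen, 64.5% of the members and 4.84% of all genes held the CHR letters. Pairs of CCAAT 31 to 34 bases apart, a spacing also chosen after the matches were seen, were present in 7 members (Aurka, Ccnb1, Ccnb2, Cdk1, Hmmr, Spc25 and Ube2c), or 22.6%, and in 1.04% of all genes. Among the members, 1 pair of motif matches overlapped. Mad2l1, Melk, Nuf2 and Nusap1 held none of these letters in the window. A match describes the letters and was not read as a binding site.

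**Figure D1:**
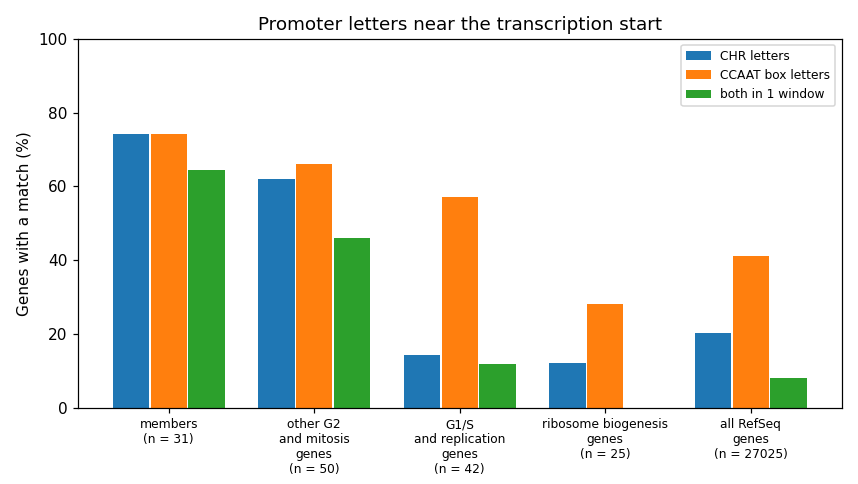
Bars give the percent of genes whose promoter window (250 bases before to 50 bases after the start) holds the CHR letters, the CCAAT letters or both, for 5 gene lists with the number of genes under each. The members stand highest for all 3 (74.2%, 74.2% and 64.5%), and all RefSeq genes stand at 20.2%, 41.1% and 7.97%.

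The members were expressed at low to moderate levels in all 10 tumours. Their summed level, in CPM (counts of a gene per 1000000 counts, scaled with trimmed mean of M values (TMM) factors), ranged from 399 in tumour 4 to 993 in tumour 8, with a median of 587. Per kilobase of the canonical transcript, the mean level of a member ranged from 1.04 (Ndc80, a kinetochore subunit that grips microtubules) to 24.7 CPM per kilobase (Ube2c, the ubiquitin-conjugating enzyme of the anaphase-promoting complex). Birc5, Ccnb2, Cdc20 and Cenpa followed Ube2c, at 22.0, 17.4, 16.6 and 11.8 CPM per kilobase. The ratio of the highest to the lowest tumour was 1.97 for Mad2l1, 2.90 for the median member and 3.80 for Plk1.

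The tumours differed along 1 main gradient. The member score, the mean log2 CPM over the 36 members, was 3.68 ± 0.42 (SD, n = 10 tumours), with tumour 5 at the bottom (3.21) and tumour 8 at the top (4.50), which is 2.44-fold apart. Tumours 4 and 7, at 3.22 and 3.27, lay next to tumour 5. Tumour 13, at 4.11, lay next to tumour 8, and the other tumours lay between 3.44 and 3.81. Tumour 8 had the highest level of 32 of the 36 members. The 4 exceptions were Bub1 and Ect2, highest in tumour 13, Mad2l1, highest in tumour 9, and Ccnb2, highest in tumour 10. All 36 members were above their median in tumours 8 and 13, and none was in tumour 4. Without tumour 8 the range of the score was 1.88-fold.

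**Figure D2:**
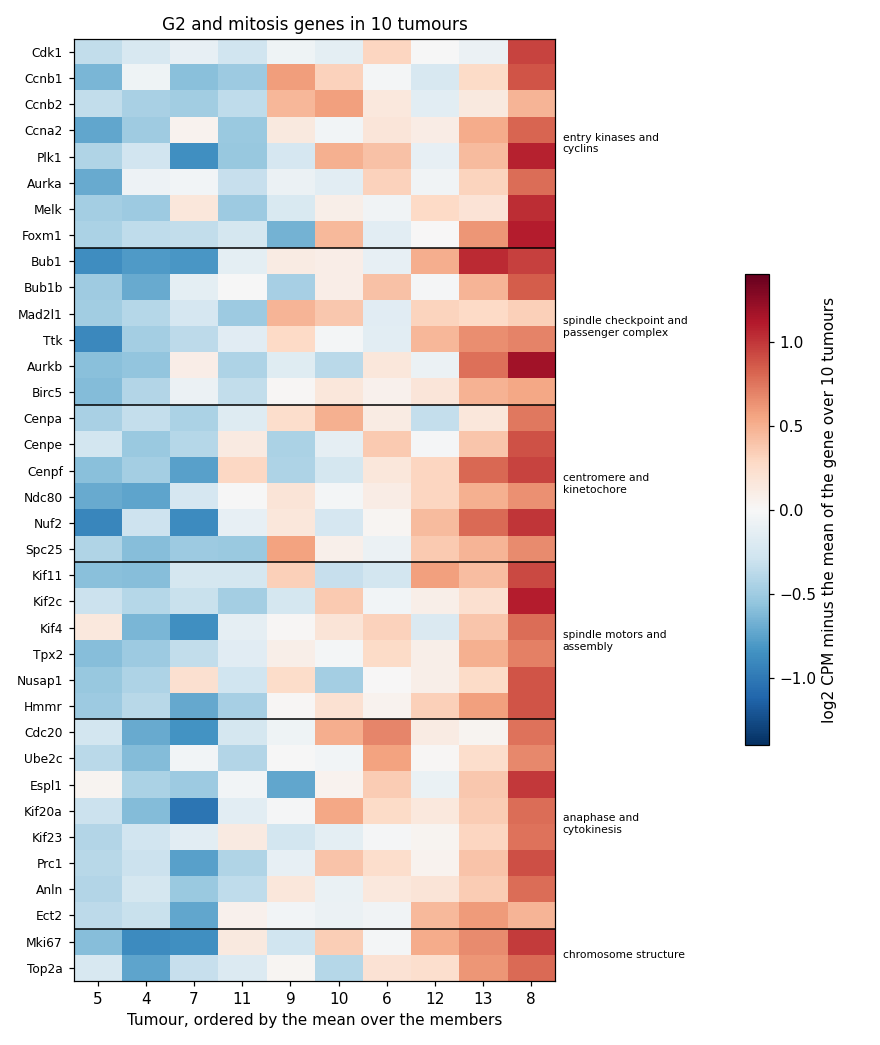
Each row is a member, grouped by role, and each column a tumour, ordered by the mean over the members; colour gives log2 CPM minus the mean of that gene over the 10 tumours. Tumours 8 and 13, at the right, are above the median for all 36 members, and tumours 5, 4 and 7, at the left, are low for most of them.

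Among the kinases and cyclins of mitotic entry, Cdk1, the kinase that starts mitosis, was at 22.2 CPM in the lowest tumour (tumour 5), 26.4 CPM in the median and 54.5 CPM in the highest (tumour 8). Ccnb1, a cyclin that activates it, was at 3.26, 4.91 and 9.35 CPM in the lowest, median and highest tumour. Ccnb2, the other B-type cyclin, was at 18.96, 26.6 and 39.3 CPM. For Cdk1, tumour 8 was well above the other tumours, the next being tumour 6 at 34.7 CPM. Foxm1, a transcription factor for late cell cycle genes, was at 10.7 CPM in tumour 9, 14.7 CPM in the median tumour and 36.1 CPM in tumour 8. Plk1, a kinase of entry and centrosome maturation, varied most in this group, at 9.21, 14.8 and 35.0 CPM with an SD of 0.58 on the log2 scale, against 0.38 for Cdk1. Ccna2, a cyclin of S and G2 phase, Aurka, a centrosomal kinase, and Melk, a kinase of the same expression phase, were also highest in tumour 8 and ranged 2.92-fold, 2.81-fold and 2.91-fold. For Melk, tumour 8 was at 7.45 CPM and the next, tumour 12, at 4.43 CPM.

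**Figure D3:**
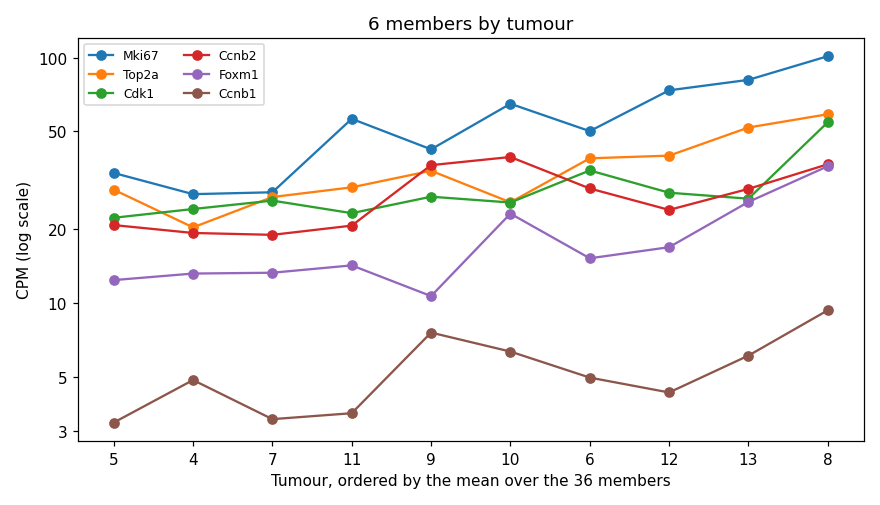
CPM on a log axis for 6 members in each tumour, with the tumours ordered by the mean over the 36 members. Mki67 spans 27.8 to 101 CPM, Cdk1 is above 50 CPM only in tumour 8 (54.5 CPM), and Ccnb2 peaks in tumour 10 (39.3 CPM).

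In the spindle checkpoint and the chromosomal passenger complex, Bub1, a checkpoint kinase at the kinetochore, had the largest SD of all members, 0.68 on the log2 scale. It was at 2.30 CPM in tumour 5, 4.18 CPM in the median tumour and 8.68 CPM in tumour 13. Birc5 (survivin), a passenger subunit, had the smallest SD of the group, 0.37, at 13.7, 21.5 and 30.6 CPM. Both were low in tumour 5, and the highest tumour was 13 for Bub1 and 8 for Birc5. Ttk and Bub1b, kinases of the checkpoint, and Aurkb, the passenger kinase, ranged 3.05-fold, 2.94-fold and 3.41-fold with tumour 8 highest. Mad2l1, which inhibits Cdc20, ranged least of the 36, from 7.93 CPM in tumour 11 to 15.6 CPM in tumour 9.

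At the centromere and kinetochore, Nuf2, a partner of Ndc80, was at 3.20 CPM in tumour 5, 5.84 CPM in the median tumour and 12.1 CPM in tumour 8. Cenpa, the centromeric histone H3 variant, varied least in this group, at 12.2, 16.4 and 27.7 CPM. All 6 genes of the group were highest in tumour 8, with fold ranges from 2.27 (Cenpa) to 3.78 (Nuf2). Cenpe, a kinetochore motor, Cenpf, a large kinetochore protein, Ndc80 and its partner Spc25 lay between these.

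Of the spindle motors and assembly factors, Kif11, the motor that pushes spindle poles apart, was at 6.94, 8.83 and 19.9 CPM in the lowest, median and highest tumour. Tpx2, which activates Aurora A on the spindle, was at 14.6, 22.4 and 35.97 CPM. Tumour 8 was highest for all 6 genes of this group, which also holds the microtubule depolymerase Kif2c, the chromosome-bound motor Kif4, and the spindle proteins Nusap1 and Hmmr. Tpx2 followed the other 35 members most closely, with r = 0.97 over the 10 tumours.

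In anaphase and cytokinesis, Kif20a, a motor of the central spindle, was at 11.5 CPM in tumour 7, 24.6 CPM in the median tumour and 40.4 CPM in tumour 8. Kif23, the motor subunit of the centralspindlin complex, had the smallest SD of all members, 0.33 on the log2 scale, at 3.32, 4.18 and 7.496 CPM. Cdc20, the activator of the anaphase-promoting complex, ranged 3.01-fold and Ube2c 2.43-fold, and tumour 6 was second for both. Espl1 (separase), which cuts cohesin, was lowest in tumour 9 at 7.10 CPM and highest in tumour 8 at 23.2 CPM. Prc1, a microtubule bundler, Anln, a scaffold of the contractile ring, and Ect2, which activates RhoA there, ranged 3.16-fold, 2.47-fold and 2.52-fold.

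Of the genes of chromosome structure, Mki67, which encodes the Ki-67 antigen of the mitotic chromosome surface, was at 27.8 CPM in tumour 4, 53.2 CPM in the median tumour and 101 CPM in tumour 8. Top2a, the topoisomerase that disentangles sister chromatids, was at 20.3, 32.1 and 58.7 CPM. Tumour 4 was lowest and tumours 8 and 13 were highest and second for both.

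The members varied more between tumours than most genes. Their median SD was 0.48 on the log2 scale, against 0.34 over the 12462 genes, and 35 of 36 lay above the median of all genes, Kif23 being the exception. Other lists had a similar median SD, at 0.48 for other G2 and mitosis genes and 0.44 for G1/S and replication genes. It was 0.50 for β-catenin targets and for hepatocyte markers, 0.99 for endothelial markers and 0.28 for ribosome biogenesis genes. Part of such an SD is counting error, which is larger for low genes. The biological coefficient of variation of edgeR, which removes it, was above the trend for the level of the gene in 13 of 36 members (36.1%) and in 23.5% of all genes. The share was 25% of other G2 and mitosis genes and 34.7% of G1/S and replication genes.

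The members moved together. All 630 pairs had a positive r over the 10 tumours, with a median of 0.75, whereas 51.5% of the pairs of all genes were positive, with a median of 0.02. In lists of related function, 88.5% of the pairs of other G2 and mitosis genes were positive (median r 0.58), as were 89.7% of the pairs of G1/S and replication genes (0.51) and 91.0% of those of ribosome biogenesis genes (0.48). The closest pair was Plk1 and Prc1 (r = 0.99) and the loosest Mad2l1 and Espl1 (r = 0.19). All genes of a library share its depth and scaling, and total counts differed between libraries, from 11687034 in tumour 7 to 36964427 in tumour 13. With counts thinned to the shallowest tumour, the median r was 0.70. The values lean on tumour 8, without which the median r was 0.62. The 6 role groups had median r values from 0.73 to 0.81. The score accounted for 72.4% of the variance of the members.

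The remaining variance showed where single genes left the gradient. Relative to the member score and to its own mean, Espl1 was lower by -0.70 and Foxm1 by -0.64 (log2) in tumour 9, where Ccnb1, Spc25 and Mad2l1 were higher by 0.58, 0.57 and 0.48. In tumour 7, Nusap1, Melk and Aurkb were higher by 0.64, 0.57 and 0.51, and Kif20a lower by -0.61. In tumour 13, Bub1 was higher by 0.60 and Cdk1 lower by -0.51. Tumours 7 and 9 each had 4 members more than 0.5 from the gradient, and tumours 4, 8 and 12 had none. These deviations have 1 library each and were not tested.

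Genes outside the list with the most similar pattern were mostly of the same machinery. The 10 highest r with the member score ran from 0.93 to 0.98 and belonged to Iqgap3, Ncaph, Ncapd2, Cdca2, Cdca8, Kntc1, Arhgap11a, Spag5, Nek2 and Pbk. All but Kntc1, which is in none of the lists, belong to the list of other G2 and mitosis genes. Among the lowest r were those of Rps24-ps2, Gm2830, Gm10247 and Rpl17, from -0.92 to -0.93. Reads of Rpl17 and of the pseudogene Rps24-ps2 may be shared with near-identical copies, so these values are uncertain. Of the 67 other G2 and mitosis genes measured, 64 passed the filter, and 54 had r over 0.5, as did 32 of 49 G1/S and replication genes and 1332 of all 12426 genes outside the list. The 2 most abundant did not follow: Hjurp, the chaperone of Cenpa, was at 112 to 659 CPM with r = 0.21, and Zwint, a kinetochore protein, at 56.6 to 109 CPM with r = -0.15.

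The question of whether the gradient followed entry into S phase was addressed with 55 G1/S and replication genes. Their mean log2 CPM had r = 0.76 and Spearman's rho = 0.79 with the member score over 10 tumours, and r = 0.78 without tumours 12 and 13. The difference between the scores, members minus replication, was 0.31 in tumour 12, which had the highest replication score, and 1.13 in tumour 8. In edgeR's quasi-likelihood test of each gene against the replication score, with Benjamini-Hochberg adjustment over all genes, 0 of 36 members and 11 of 12462 genes (0.0883%) passed an adjusted p of 0.05. At an unadjusted p under 0.05 there were 20 of 36 members, against 16.8% of all genes, and all 36 slopes were positive, with a median of 0.81 log2 units per unit of the score against 0.03 over all genes. The count of 20 was 13 with RNAs that lack a poly(A) tail as a term and 21 with tag family as a term. The share of all genes was not counted in those settings. The smallest p was that of Kif11, with a slope of 1.301 ± 0.225 (SE) and an adjusted p of 0.068 in edgeR. By the Wald test of DESeq2, 8 members passed (Kif11, Ttk, Bub1, Nuf2, Spc25, Ect2, Mki67 and Hmmr), against 3.98% of all genes.

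**Figure D4:**
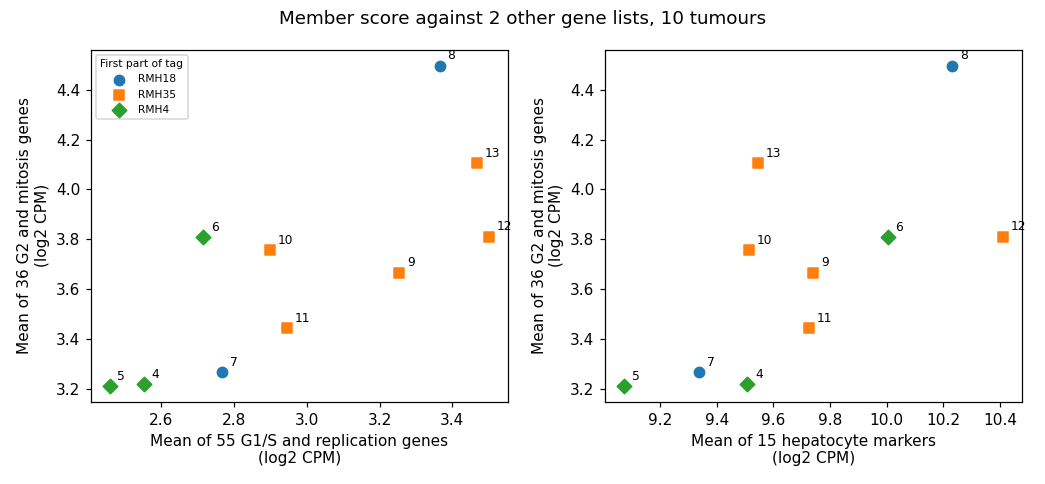
Member score (mean log2 CPM of the 36 members) against the mean log2 CPM of the G1/S and replication genes (left) and of the hepatocyte markers (right); each point is a tumour with its number, and the shape gives the first part of its tag. Tumour 8 is highest on the vertical axis in both, and tumours 7 and 8, which share a tag, lie at 3.27 and 4.50.

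No member passed the adjusted threshold against the other scores in edgeR, nor by the Wald test of DESeq2. For the ribosome biogenesis score, the Wald test gave an adjusted p to 30 of the 36 members. The shares of all genes given below belong to the main fits. In the other settings the share at an unadjusted p under 0.05 was not counted, so those counts have no background. Against the ribosome biogenesis score, 0 of 36 members passed at an adjusted p of 0.05 (0% of all genes) and 0 at an unadjusted p under 0.05 (6.93% of all genes). This changed with the setting. Without tumour 8, 4 members had an unadjusted p under 0.05, the median slope was 1.05 instead of 0.12, and r between the scores was 0.59 instead of 0.13. With tag family as a term, 2 members had an unadjusted p under 0.05 and the median slope was 0.94, and with the size factors of DESeq2 the median slope was -0.11. Against the β-catenin target score the counts were 0 (0.305% of all genes) and 0 (16.6%), the second being 2 without tumour 7. Against the hepatocyte marker score they were 0 (0.016%) and 15 (8.02%), with all 36 slopes positive, but the second count was 0 without tumour 8, 2 without tumour 5, 9 without tumour 4, 23 without tumour 13 and 26 without tumour 12. It was also 3 with tag family as a term, 2 with the RNAs that lack a poly(A) tail as a term, 0 with the median of the markers as the score, 0 without tumours 8 and 12, and 1 without tumours 5, 6 and 7. Against the endothelial marker score they were 0 (2.7%) and 2 (14.3%). The second was 5 with tag family as a term, 3 without tumour 8 or 10, 1 without tumour 4 or 6, and 0 without tumour 7, 12 or 13. It was also 0 with the RNAs that lack a poly(A) tail as a term and with the median of the markers as the score. Without tumours 7 and 11, and without tumours 5, 6 and 7, it was 0 as well. Against the leukocyte marker score they were 0 (0%) and 0 (11.5%), the second being 5 without tumour 5 and 9 without tumours 5 and 9. Between the 3 tag families, the F test of edgeR gave 0 members (0.00802% of all genes) and 2 at an unadjusted p under 0.05 (13.4%). The second count was 13 without tumour 7, 7 without tumour 6, 4 without tumour 8, 3 without tumour 11 and 0 without tumour 4 or 5. Without tumour 7 or 8 their family is left with 1 tumour, which is assumed to vary like the other families. Tumours 7 and 8 share a whole tag and lay near opposite ends of the member score.

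Some properties of the libraries moved with the member score. Total counts over genes ranged from 11687034 in tumour 7 to 36964427 in tumour 13, and their log2 had r = 0.65 and rho = 0.81 with the score. This r was 0.73 without tumours 12 and 13 and 0.80 without tumour 8. With counts thinned to the shallowest tumour, the range of the score was 2.46-fold. Thinning evens out differences in counting error only, and the cause of the link with total counts was not tested. RNAs without a poly(A) tail, such as Rpph1 and Rmrp, summed to between 1.72 and 80.3 CPM and were highest in tumours 5, 6 and 7. Their log2 sum had r = -0.55 and rho = -0.66 with the score. This r was -0.21 without tumours 5 and 7 and -0.53 without tumour 8. Without tumours 5, 6 and 7 the range of the member score was 2.42-fold, with tumour 4 then the lowest, and the median r between members 0.78. Hepatocyte markers were abundant in every tumour, with a summed level of 34180 to 49363 CPM, and none of the 15 was at 0 in any tumour. Their score had r = 0.66 and rho = 0.78 with the member score, and r = 0.54 without tumours 8 and 12. Endothelial markers summed to 83.7 to 508 CPM, stellate and fibroblast markers to 271 to 1822 CPM, macrophage markers to 171 to 513 CPM, and lymphocyte markers to 4.34 to 20.6 CPM, with 5 of 12 lymphocyte markers at 0 in at least 1 tumour. The scores of these 4 lists had r of -0.30, -0.28, 0.09 and -0.23 with the member score, and the macrophage value was -0.41 without tumours 5 and 9 and 0.21 without tumour 8. The stellate and fibroblast value was -0.15 without tumours 7 and 9, the lymphocyte value -0.12 without tumour 8, and the endothelial value -0.45 without tumour 8, and the part of these other cells in the result was not tested.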

How the data were processed

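The authors deposited unnormalised read counts per gene from polyadenylated RNA (Trizol, TruSeq stranded mRNA). The submitters' processing notes name TopHat2, HTSeq and GRCm38, whereas the study's methods describe other programs, so strand use in counting was not assumed. Of 19 columns, 10 were matched to tumours by a number found in a single sample title, and 9 were not used. Symbols and canonical transcript lengths came from GENCODE M39 by stable identifier, and 34199 of 39179 identifiers had a symbol. Promoters came from RefSeq.

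Counts were scaled by TMM and fitted in edgeR 4.0.16 after filterByExpr over the 10 tumours as 1 group. Values on the log2 scale used a prior count of 2. Adjusted p-values were taken over all genes with a threshold of 0.05. DESeq2 1.42.0 was an alternative. The fits were also run on simulated counts with genes drawn independently of each other, and no outcome of that run is used here. At these depths 3 counts equal 0.0812 to 0.257 CPM, a floor for counting error only. The members and lists were chosen with earlier results of these data known. All members were accounted for by role. Values were given for 6 of them, for the members with the largest and smallest SD in each role, and for the genes with the highest and lowest r with the score, of which 1 is not reported here. Alternatives were another prior count, scaling, filter, transformation, thinning, added terms, and leaving out tumours.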

Additional observations from a re-analysis of the deposited data

Results flagged for a closer look

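Of 58 measures tested for a tumour far from the other 9 by Dixon's ratio, the gap to the nearest tumour over the whole range,, 3 were flagged, and chance alone flags about 1 in every 20 groups. Cdk1 had a ratio of 0.505, with tumour 8 at 5.77 log2 CPM and the next tumour at 5.12. Melk had a ratio of 0.490, with tumour 8 at 2.92 log2 CPM and the next tumour at 2.18. The macrophage marker score had a ratio of 0.469, with tumour 5 at 1.92 and the next tumour at 3.17.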

How the results depend on the processing

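Under every alternative run, the median SD of the members moved by less than the SD of these values between members. The range of their score moved by less than the SD of the score between tumours, 0.42 on the log2 scale. That limit is wide, and the fall without tumour 8 stayed within it. Without 1 tumour each, the median SD ran from 0.403 to 0.50, the range from 1.88-fold to 2.45-fold and the median r between members from 0.619 to 0.785, the lowest in each case without tumour 8. The filter removes no member, so it left the SD and the range of the members as they were. In the fits, leaving it out moved the members at an unadjusted p under 0.05 from 20 to 19 (replication), 15 to 14 (hepatocyte markers) and 2 to 1 (tag families). The members called against the replication score were 0 in edgeR under every alternative and 8 by the Wald test of DESeq2, where the cause was not tested, while leaving out each tumour in turn gave 0 in edgeR and 16 to 28 members at an unadjusted p under 0.05. All 36 slopes stayed positive in the 18 alternatives, and the adjusted p of Kif11 ran from 2.8e-04 to 0.667. Counts at an adjusted p of 0.05 against the other scores and between tag families stayed at 0, while counts at an unadjusted p under 0.05 changed with single tumours and with added terms. The share of all genes at an unadjusted p under 0.05 was counted in the main fits only. The settings without the 3 tumours highest in RNAs lacking a poly(A) tail, and all settings for the median r, were chosen after seeing the data. Tumours could not be paired with another group, because the tumours form 1 group and no other group had a matched column. Tag family was fitted as a term instead, and slopes within whole tags were not fitted.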

Other observations

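In the lists used beside the members, the genes that passed an adjusted p of 0.05 in edgeR were few, except against the endothelial score. Of 64 other G2 and mitosis genes tested, 0 passed in any of the 7 fits. Against the replication score, 37 of them had an unadjusted p under 0.05, as did 16.8% of all genes. Against their own score, 6 of 49 replication genes passed (0.0883% of all genes), as did 3 of 16 β-catenin targets (0.305%) and 10 of 11 endothelial markers (2.7%). These genes make up the score they were tested against. Against the endothelial score, 7 of 10 stellate and fibroblast markers and 3 of 4 erythroid markers passed, all with a positive slope, beside 2.7% of all genes. Ribosome biogenesis genes, cell cycle inhibitors and p53 targets, hepatocyte, macrophage, lymphocyte and cholangiocyte markers and RNAs without a poly(A) tail had 0 genes that passed in any fit. Of 30 ribosome biogenesis genes, 20 had an unadjusted p under 0.05 against their own score, beside 6.93% of all genes. No neutrophil marker was kept for testing.

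The 2 most abundant genes of each list are given as the mean CPM over the 10 tumours with the SD. Rfc2 and Mcm10, of DNA replication, were at 44.8 ± 4.26 and 37.3 ± 27.2 CPM, and Ncl and Mybbp1a, nucleolar proteins, at 633 ± 110 and 235 ± 42.1 CPM. Glul and Oat, β-catenin targets of hepatocytes near the central vein, were at 10609 ± 3008 and 9304 ± 2730 CPM, and Alb and Apoa1, plasma proteins of hepatocytes, at 17543 ± 3329 and 7022 ± 1893 CPM. Cdkn1a and Btg2, which restrain the cell cycle, ranged from 63.6 to 483 and from 37.2 to 673 CPM, each highest in tumour 5. Their r with the member score was -0.29 and -0.36, while the 11 kept genes of their list had a median r of 0.14, from -0.48 to 0.68. Eng and Cdh5 of endothelium were at 46.1 ± 26.4 and 36.03 ± 30.4 CPM, C1qb and C1qc of macrophages at 56.1 ± 21.7 and 49.3 ± 18.7 CPM, and Col1a1 and Col3a1 of stellate cells and fibroblasts at 260 ± 192 and 222 ± 171 CPM. Ptprc and Cd79b were at 6.00 ± 3.05 and 1.20 ± 0.71 CPM, Krt19 and Spp1 at 31.4 ± 24.03 and 27.2 ± 22.9 CPM, and S100a9 and S100a8 at 3.92 ± 5.09 and 1.55 ± 2.11 CPM. Hbb-bs and Hba-a1, globins of red cells, were highest in tumour 7 at 3371 and 1282 CPM, with medians of 121 and 49.1 CPM.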
